A study of Mus musculus with 6 samples.

Results

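The voltage-gated sodium and calcium channel genes were followed in RNA sequencing of the auditory cortex of C57 mice, where 3 libraries with Wnt3 overexpression (genotype label WNT3 Overexpressing) were compared with 3 libraries labelled WNT3 control. The genes were taken by symbol from the deposited table: 10 sodium channel alpha subunits, 4 sodium channel beta subunits, 10 calcium channel alpha-1 subunits (the Cacna1 genes), 4 alpha-2-delta subunits (Cacna2d1 to Cacna2d4) and 4 calcium channel beta subunits (Cacnb1 to Cacnb4). These are 32 of 50559 listed genes, and 30 of them were among the 22360 genes with enough counts to be tested. The labels give neither the vector or promoter behind the overexpression, nor the age or sex of the mice, nor what the controls received, nor whether the replicates are separate animals. All p-values therefore measure the spread between these libraries, which may be technical. The tissue label is auditory cortex, whereas the extraction protocol names striatum.

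Voltage-gated sodium channels open on depolarisation and carry the upstroke of the action potential. Each consists of a large pore-forming alpha subunit, and small beta subunits that alter gating and act in cell adhesion. Voltage-gated calcium channels turn depolarisation into calcium entry, which drives transmitter release, dendritic signalling and gene expression. Their alpha-1 subunit forms the pore, the cytoplasmic beta subunit brings it to the membrane and shapes gating, and the extracellular alpha-2-delta subunit raises its surface density. In cortex, different alpha subunits serve excitatory neurons, interneurons, axons and presynaptic terminals.

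Libraries held 54642400 to 71803617 counts in overexpression and 42614588 to 55859274 in control. Levels within a gene are given as CPM, counts relative to a library size scaled by TMM (edgeR's trimmed mean of M-values), and always in the order of libraries 1, 2 and 3. Levels between genes are given as the deposited TPM, which allow for transcript length. Wnt3 stood at 98.8, 7.45 and 8.71 CPM in the overexpression libraries, against 2.70, 1.91 and 1.74 CPM in the controls, with overexpression 1 far above the other libraries of its group. The excitatory cortical markers Slc17a7, the vesicular glutamate transporter, and Tbr1, a transcription factor of deep layers, were present in every library, at 684, 696 and 782 CPM (Slc17a7) and 109, 114 and 132 CPM (Tbr1) in overexpression, against 728, 826 and 681 CPM and 127, 118 and 101 CPM in control. Control library 2 stood apart from the other 5 libraries in a way that followed transcript length, so fold changes are given with and without it. Since the tissue is bulk, fewer cells of a type and less RNA per cell cannot be told apart.

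No sodium or calcium channel gene passed the test of overexpression against control. With edgeR's quasi-likelihood model, fitted to the whole table and adjusted by Benjamini-Hochberg, 0 of 30 channel genes had an adjusted p under 0.05, as did 0 of all 22360 genes (a share of 0%). Wnt3 itself, with 88 or more counts in every library, was among the genes that did not pass. The lack of calls is thus no measure of how little the channel genes changed. The lowest adjusted p of a channel gene was 0.822. One channel gene, Scn10a, had an unadjusted p under 0.05, against 4.65% of all tested genes. DESeq2 also called 0 channel genes, against 64 genes in all (0.182% of those it was run on). The groups did not overlap in 2 of the 30 channel genes, against 11.9% of all tested genes, so the channel genes were not above the background. These were Scn10a, higher in overexpression as were 5.89% of all genes, and Cacna2d4, lower as were 6.04%. The log2 fold changes of the 30 were above 0 in 18 and below 0 in 12, with a median of 0.07, against a median of -0.01 over all tested genes. Without control 2 the signs turned: 11 of 31 tested channel genes were above 0 and 20 below, with a median of -0.09 against 0.02 over all genes, and again 0 passed. Of all genes, 46.8% were then below 0. Among the 5590 genes with the longest transcripts, 14 of 24 channel genes were below 0, against 51.0% of all genes of that length.

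**Figure D1:**
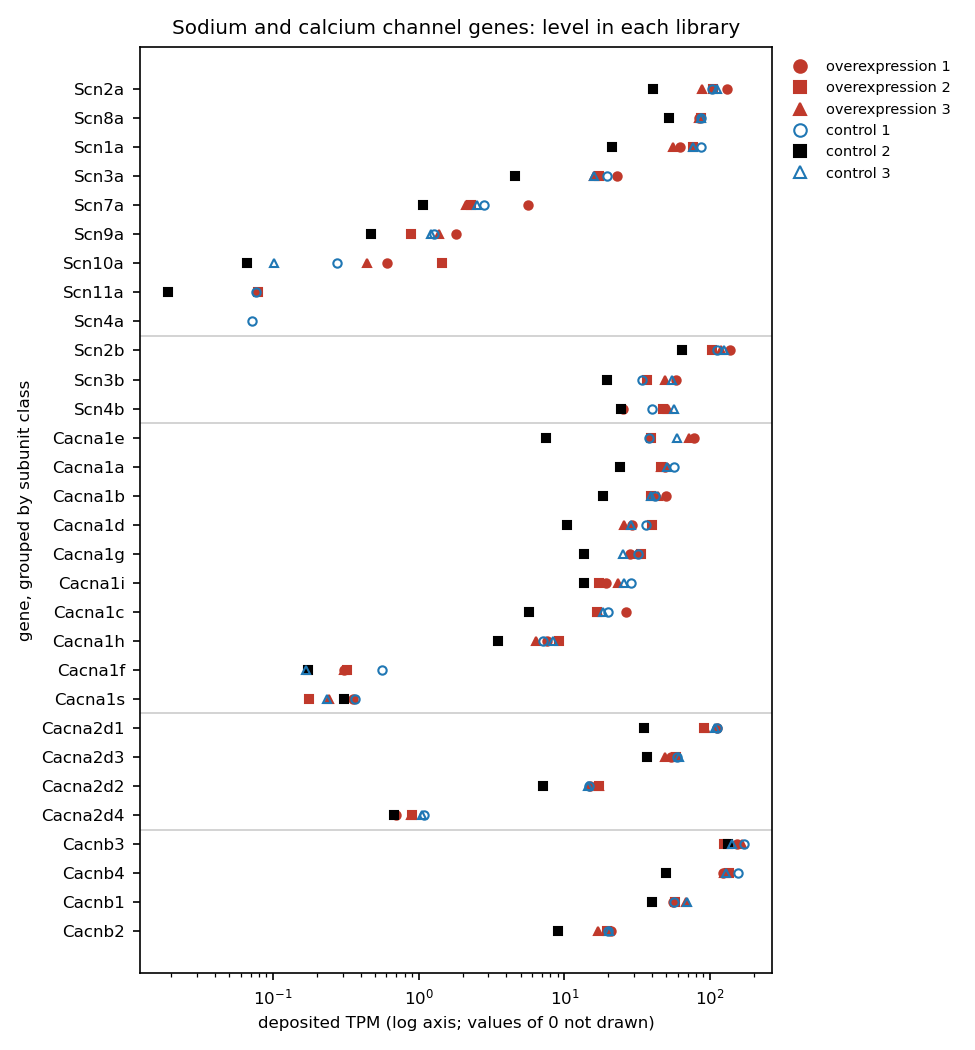
Deposited TPM (log axis) of 30 channel genes in each library, grouped by subunit class and ordered by mean level; red symbols are overexpression libraries, open blue symbols controls 1 and 3, black squares control 2. Scn4a is the lowest gene, and the black squares lie to the left for most genes.

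Most channel subunits were expressed, with accessory subunits among the highest. Cacnb3 had a mean of 148 TPM over the 6 libraries (range 125 to 169.8), Cacnb4 119 TPM (range 49.6 to 154) and Scn2b 110.1 TPM (range 64.6 to 137). These ranges overlapped, so the order of the 3 is not fixed by these libraries. The most abundant pore-forming genes were Scn2a at 96.4 TPM and Scn8a at 79.9 TPM among sodium channels, and Cacna1e at 48.9 TPM (range 7.50 to 77.0) and Cacna1a at 45.4 TPM (range 24.1 to 56.9) among calcium channels. Cacna1e was below Cacna1a in 3 of the 6 libraries, so the order of these 2 is not fixed. At the low end, Cacna2d4, Scn10a, Cacna1f, Cacna1s, Scn11a and Scn4a each had a mean under 1 TPM.

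None of the alpha subunits best known from central neurons passed the test. Scn2a, the channel of excitatory neurons and their axon initial segments, lies on chromosome 2, positions 65620771 to 65767447 of the plus strand (mm10, GENCODE M21). It stood at 450.0, 377 and 323 CPM in the overexpression libraries, against 382, 216 and 409 CPM in the controls. Control 2 was the lowest library and overexpression 1 the highest, and the groups overlapped. The log2 fold change was 0.19 ± 0.26 (SE), or -0.05 ± 0.14 (SE) without control 2. Scn8a, which gathers at axon initial segments and nodes of Ranvier, stood at 367, 395 and 395 CPM in overexpression and 409.6, 353 and 410.3 CPM in control. All 6 libraries lay close together, with a log2 fold change of -0.02 ± 0.15 (SE), or -0.09 ± 0.08 (SE) without control 2. Scn3a, which is known mainly from the developing brain, stood at 91.7, 71.0 and 67.9 CPM in overexpression, against 85.6, 27.2 and 68.1 CPM in control. Its control 2 value lay far below the other 5 libraries, and the log2 fold change of 0.35 ± 0.37 (SE) became 0.00 ± 0.16 (SE) without that library.

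Scn1a, the main sodium channel of parvalbumin interneurons, was one of the genes whose fold change depended on control 2. It stood at 202, 257 and 194 CPM in the overexpression libraries, against 303, 109 and 265 CPM in the controls, means of 218 ± 34.2 CPM in overexpression and 226 ± 103 CPM in control (SD, n = 3 each). All 3 overexpression libraries lay below controls 1 and 3 and above control 2. With all libraries the log2 fold change was -0.05 ± 0.35 (SE), and without control 2 it was -0.38 ± 0.14 (SE), with an unadjusted p of 0.0276 and an adjusted p of 0.797 by edgeR. When each library was left out in turn, it ran from -0.38 to 0.22. The 8 interneuron markers listed summed to 633, 843 and 721 CPM in overexpression and 663, 769 and 654 CPM in control, with none at 0, and their part in the Scn1a values was not tested. Of the 50-base words in the transcripts of Scn1a, Scn2a and Scn3a, 4.03%, 5.62% and 6.49% also occur in other channel genes, mostly one another, so counts there can be split.

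The remaining sodium channel alpha genes were low. Scn7a encodes a sodium-sensing channel known from glia of the circumventricular organs. It stood at 16.2, 6.84 and 6.47 CPM in overexpression and 8.49, 4.73 and 7.69 CPM in control, with overexpression 1 apart from the other libraries, and its log2 fold change of 0.49 ± 0.41 (SE) was 0.28 without control 2 and ran from -0.06 to 0.72 as single libraries were left out, the lowest being without overexpression 1. The summed level of 6 meningeal fibroblast markers was also highest in overexpression 1, at 54.6, 28.3 and 18.7 CPM in overexpression against 17.8, 16.0 and 26.7 CPM in control, with none of them at 0 in any library, and their part in the Scn7a values was not tested. Scn9a, a channel of peripheral sensory neurons, stood at 6.65, 3.04 and 5.42 CPM in overexpression and 5.12, 2.84 and 4.92 CPM in control, with overlapping groups and log2 fold changes of 0.23 ± 0.37 (SE) and, without control 2, 0.01 ± 0.33 (SE). Of the 50-base words in Scn9a transcripts, 4.04% also occur in other channel genes, most of them in Scn3a, so its counts can be split too. Scn4a, the skeletal muscle sodium channel, and Scn11a, a sensory neuron channel, had too few counts to be tested with all 6 libraries. Scn4a had no count in the 3 overexpression libraries, which allows up to 0.0158 CPM over that group (3 counts, counting error only), and 11, 0 and 0 counts in the controls. Scn11a had 0, 12 and 0 counts in overexpression and 8, 4 and 0 in control. Without control 2 it is among the 31 genes tested, with a log2 fold change of -0.49 ± 1.91 (SE).

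Scn10a, best known from pain-sensing neurons of the dorsal root ganglia, had the largest log2 fold change of the 30 tested channel genes, at a very low level. The gene (ENSMUSG00000034533.10) lies on chromosome 9, positions 119608456 to 119719322 of the minus strand. It had 83, 237 and 85 counts in the overexpression libraries and 32, 15 and 15 in the controls, or 1.48, 3.81 and 1.19 CPM against 0.751, 0.275 and 0.297 CPM. Every overexpression library was above every control, with overexpression 2 the highest. Its log2 fold change was 2.30 ± 0.61 (SE), with an unadjusted p of 0.00539 and an adjusted p of 0.822 by edgeR; DESeq2 gave an adjusted p of 0.0671. Across single libraries left out, the log2 fold change ran from 1.61 to 2.91, the lowest being without overexpression 2, and it was 2.05 ± 0.66 (SE) without control 2. On the log2(TPM + 1) scale, which understates changes of low genes, it was 0.64.

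The sodium channel beta subunits overlapped between the groups. Scn2b, which is linked to the alpha subunit by a disulphide bond, stood at 243, 191 and 225 CPM in overexpression and 211, 178 and 239 CPM in control, a log2 fold change of 0.07 ± 0.18 (SE), or -0.03 ± 0.12 (SE) without control 2. Scn3b stood at 94.1, 61.2 and 84.5 CPM in overexpression and 59.2, 49.6 and 94.8 CPM in control. It was high in overexpression 1 and 3 and in control 3, and lower in the other libraries of both groups, and its log2 fold change was 0.24 ± 0.28 (SE), or 0.05 ± 0.24 (SE) without control 2. Scn4b, a subunit linked to resurgent sodium current and abundant in striatum, stood at 46.7, 91.3 and 102 CPM in overexpression and 78.4, 70.1 and 112 CPM in control, with a log2 fold change of -0.11 ± 0.31 (SE), or -0.25 ± 0.32 (SE) without control 2. Overexpression 1 was the lowest library for Scn4b and control 3 the highest, and the same was true of the summed level of 9 striatal projection neuron markers. By the median log2 deviation of the 9 markers from the control mean, control 3 was again highest (0.56). The lowest by that measure was overexpression 2 (-0.88), with overexpression 1 at -0.60 and control 1 at -0.51. Those markers summed to 274, 295 and 338 CPM in overexpression and 289.6, 301 and 456 CPM in control, with none at 0, and their part in the Scn4b values was not tested.

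**Figure D2:**
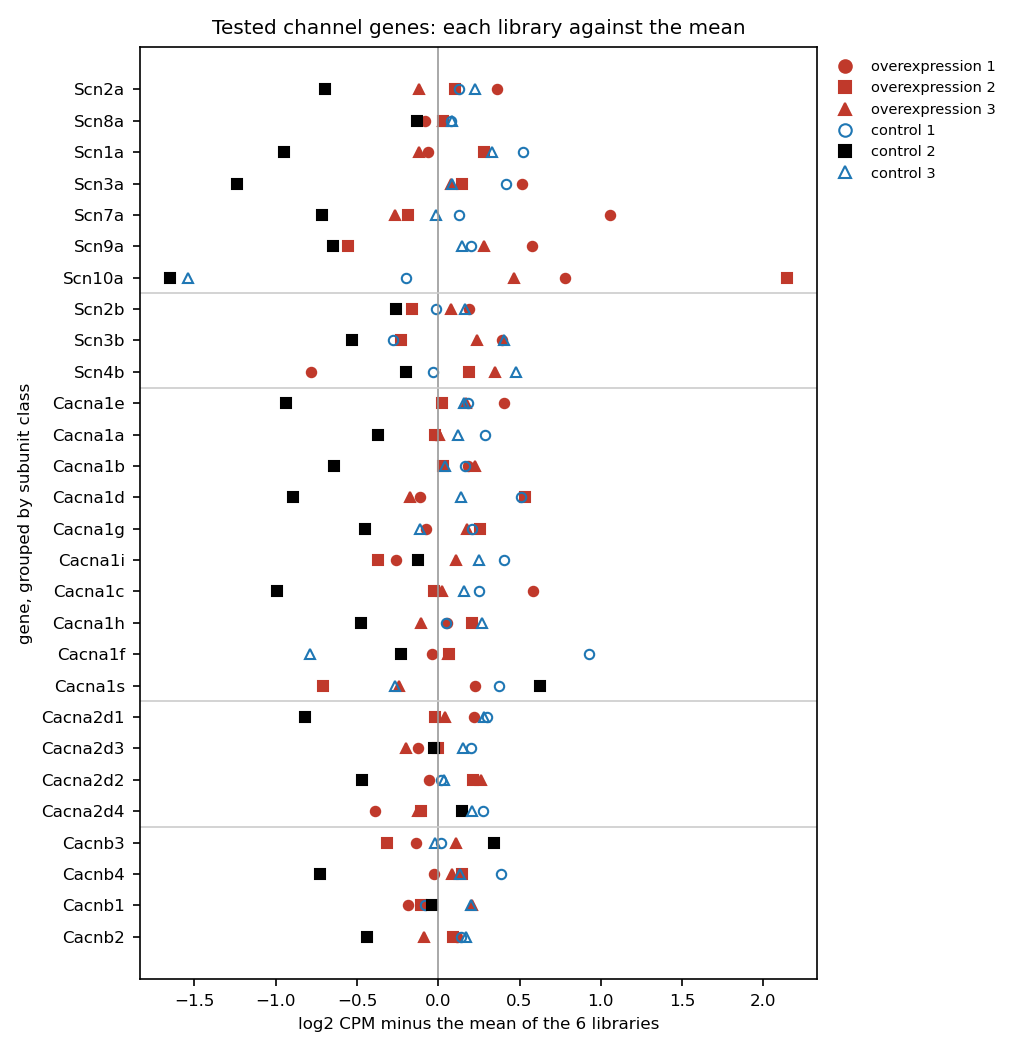
Log2 CPM of 28 tested channel genes in each library, minus the mean of the 6 libraries (symbols as for the TPM levels). Control 2 (black squares) is the lowest library for 20 genes, whereas Cacnb3 and Cacna1s have it as the highest, and the red overexpression symbols lie to the right of every control for Scn10a.

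Presynaptic calcium channel alpha-1 genes showed the same dependence on control 2. Cacna1a, the pore of P/Q-type channels that trigger fast transmitter release, lies on chromosome 8, positions 84388440 to 84640246 of the plus strand. It stood at 161, 161 and 164 CPM in the overexpression libraries, against 199.7, 126 and 177 CPM in the controls. The overexpression libraries lay close together, below controls 1 and 3 and above control 2. The log2 fold change was -0.05 ± 0.20 (SE), or -0.22 ± 0.09 (SE) without control 2 (unadjusted p = 0.043, adjusted p = 0.835, edgeR). Cacna1b, the N-type channel, stood at 166, 149 and 171 CPM in overexpression and 164, 93.5 and 150.2 CPM in control, a log2 fold change of 0.25 ± 0.22 (SE), or 0.04 ± 0.10 (SE) without control 2. Cacna1e, the R-type channel, had 573, 439.8 and 486 CPM in overexpression and 491, 226 and 482 CPM in control. Control 2 was its lowest library by a wide margin, and the log2 fold change was 0.32 ± 0.29 (SE), or 0.04 ± 0.12 (SE) without control 2.

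Counts and TPM disagreed for Cacna1e more than for any other tested channel gene. Its deposited TPM were 77.0, 39.3 and 71.3 in overexpression and 38.3, 7.50 and 59.6 in control. The ratio of counts to TPM, each scaled to the median gene of its library, ran from 5.58 in overexpression 3 to 17.1 in control 2, a 3.06-fold range, whereas the next widest range among the channel genes, of Scn9a, was 1.17-fold. On the log2(TPM + 1) scale the log2 fold change of Cacna1e was 1.16, against 0.32 from counts, and without control 2 it was 0.32, against 0.04 from counts; none of these passed the threshold. Its TPM and its counts thus give different sizes of difference, and why they diverge was not tested.

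L-type and T-type channel genes overlapped between the groups, apart from Cacna1i when control 2 was left out. Cacna1c, an L-type pore that couples activity to gene expression, stood at 140.1, 91.8 and 94.8 CPM in overexpression and 111, 46.9 and 104 CPM in control, with log2 fold changes of 0.32 ± 0.33 (SE) and, without control 2, 0.02 ± 0.19 (SE). Cacna1d, the other neuronal L-type pore, stood at 101, 158 and 96.3 CPM in overexpression and 155, 58.5 and 120.1 CPM in control. Its highest values came from overexpression 2 and control 1, so that replicates of both groups were split, and the log2 fold change was 0.09 ± 0.35 (SE), or -0.22 ± 0.23 (SE) without control 2. Among the T-type channels, which open near resting potential, Cacna1g stood at 86.7, 109 and 103 CPM in overexpression and 105, 66.8 and 84.4 CPM in control. Cacna1h stood at 31.8, 35.5 and 28.5 CPM in overexpression and 31.7, 22.1 and 37.0 CPM in control. Neither differed beyond the spread of its replicates, with log2 fold changes of 0.22 ± 0.21 for Cacna1g and 0.08 ± 0.22 for Cacna1h (SE), or 0.07 and -0.10 without control 2. Cacna1i, the third T-type pore, stood at 74.0, 68.5 and 95.6 CPM in overexpression and 117, 81.3 and 106 CPM in control. Overexpression 1 and 2 were below all controls, whereas overexpression 3 lay above control 2. For Cacna1i the log2 fold change was -0.35 ± 0.21 (SE), and -0.49 ± 0.15 (SE) without control 2 (unadjusted p = 0.0153, adjusted p = 0.744, edgeR). It stayed below 0 with each library left out, from -0.51 to -0.23.

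Alpha-1 genes best known from other tissues were low in every library. Cacna1f, the retinal L-type channel, ranged from 0.168 to 0.562 TPM, and Cacna1s, the skeletal muscle L-type channel, from 0.177 to 0.364 TPM, with overlapping groups in both. Of the 6550 exonic bases of Cacna1s, 1309 are shared with an annotated gene on the opposite strand, so its counts may hold other reads. The 7 skeletal muscle markers listed summed to 12.1, 11.6 and 15.0 CPM in overexpression and 11.9, 17.4 and 10.8 CPM in control, with Ckm or Tnnt3 at 0 in some libraries, and their part in the Cacna1s values was not tested.

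Of the alpha-2-delta genes, Cacna2d4 alone did not overlap between the groups. Cacna2d1, an alpha-2-delta subunit that binds gabapentin, stood at 324, 275 and 287 CPM in overexpression and 344, 158 and 338 CPM in control. Its log2 fold change of 0.08 ± 0.29 (SE) turned to -0.21 ± 0.10 (SE) without control 2. Cacna2d2, its close relative, stood at 32.3, 39.0 and 40.2 CPM in overexpression and 33.9, 24.2 and 34.4 CPM in control, and its log2 fold change was above 0 on both bases (0.27 and 0.12). Cacna2d3, a further alpha-2-delta subunit, stood at 82.6, 89.8 and 78.6 CPM in overexpression and 104, 88.2 and 100.2 CPM in control. Here control 2 lay within the range of the other libraries, and the overexpression libraries were below controls 1 and 3. For Cacna2d3 the log2 fold change was -0.22 ± 0.15 (SE), or -0.28 ± 0.10 (SE) without control 2 (unadjusted p = 0.0209, adjusted p = 0.792, edgeR). Cacna2d4, a subunit known from the retina, stood at 1.57, 1.91 and 1.89 CPM in overexpression, against 2.49, 2.27 and 2.37 CPM in control, with no overlap. Its log2 fold change was -0.41 ± 0.28 (SE), with an unadjusted p of 0.18 by edgeR, or -0.44 ± 0.24 (SE) without control 2.

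Of the cytoplasmic beta subunits, Cacnb4 was the most abundant by counts, at 377, 424 and 407 CPM in overexpression and 501, 232 and 421 CPM in control. Its log2 fold change was 0.07 ± 0.27 (SE), or -0.19 ± 0.10 (SE) without control 2. Cacnb3, a partner of N-type and L-type pores, stood at 161, 142 and 191 CPM in overexpression and 179.7, 225 and 175 CPM in control, with control 2 the highest. Cacnb1 stood at 73.4, 77.7 and 96.5 CPM in overexpression and 78.9, 81.4 and 96.0 CPM in control, and Cacnb2 at 40.6, 40.0 and 35.3 CPM in overexpression and 41.2, 27.7 and 42.2 CPM in control. The log2 fold changes of Cacnb3, Cacnb1 and Cacnb2 were -0.23 ± 0.18, -0.05 ± 0.18 and 0.06 ± 0.20 (SE), or -0.10, -0.08 and -0.11 without control 2, none past the threshold. All 4 Cacnb genes had a log2 fold change below 0 without control 2, from -0.19 to -0.08. In all, 9 channel genes share exonic bases with a gene annotated on the opposite strand, the most in Cacnb4 (1433 bases), Cacna1s (1309), Cacnb2 (968), Cacna1d (589) and Cacna1a (435), and whether the counting used strand is not stated, so such reads may be included.

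**Figure D3:**
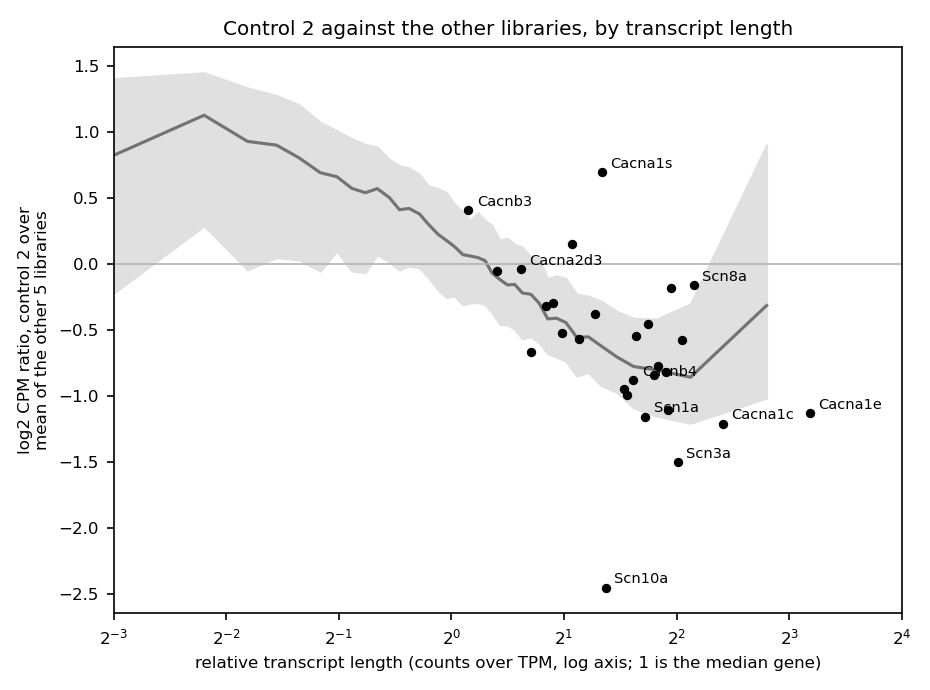
Log2 ratio of CPM in control 2 to the mean of the other 5 libraries, against relative transcript length (counts over TPM, log axis, 1 is the median gene); black points are 28 tested channel genes, the grey line and band the median and the middle range (quartiles) of all 22360 tested genes in 40 bins of length. Most points follow the line down, from 0.41 for Cacnb3 to -1.50 for Scn3a, with Scn10a at -2.45. For Scn10a, control 2 (0.275 CPM) was close to control 3 (0.297 CPM), and the mean of the other 5 includes the higher overexpression libraries.

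Control 2 was low in channel genes as it was in other long transcripts. It was the lowest of the 6 libraries for 20 of the 30 tested channel genes (66.7%) and for 34.0% of all tested genes. When the tested genes were ordered by relative transcript length, taken as the ratio of counts to TPM, 24 of the 30 channel genes were among the 5590 genes with the longest transcripts. There control 2 was the lowest library for 18 of the 24 channel genes and for 66.4% of all genes of that length. The median log2 ratio of control 2 to the mean of the other 5 libraries was -0.67 for the 24 channel genes and -0.61 for all genes of that length. Across the 30 channel genes the ratio fell with transcript length (Pearson's r = -0.62, Spearman's rho = -0.57) and less with the genomic span of the gene (r = -0.49, rho = -0.46), as a description over genes that share the same libraries. Not every long transcript was low in control 2: the ratio was 0.70 for Cacna1s, 0.15 for Cacna2d4, -0.16 for Scn8a and -0.18 for Cacna1i.

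**Figure D4:**
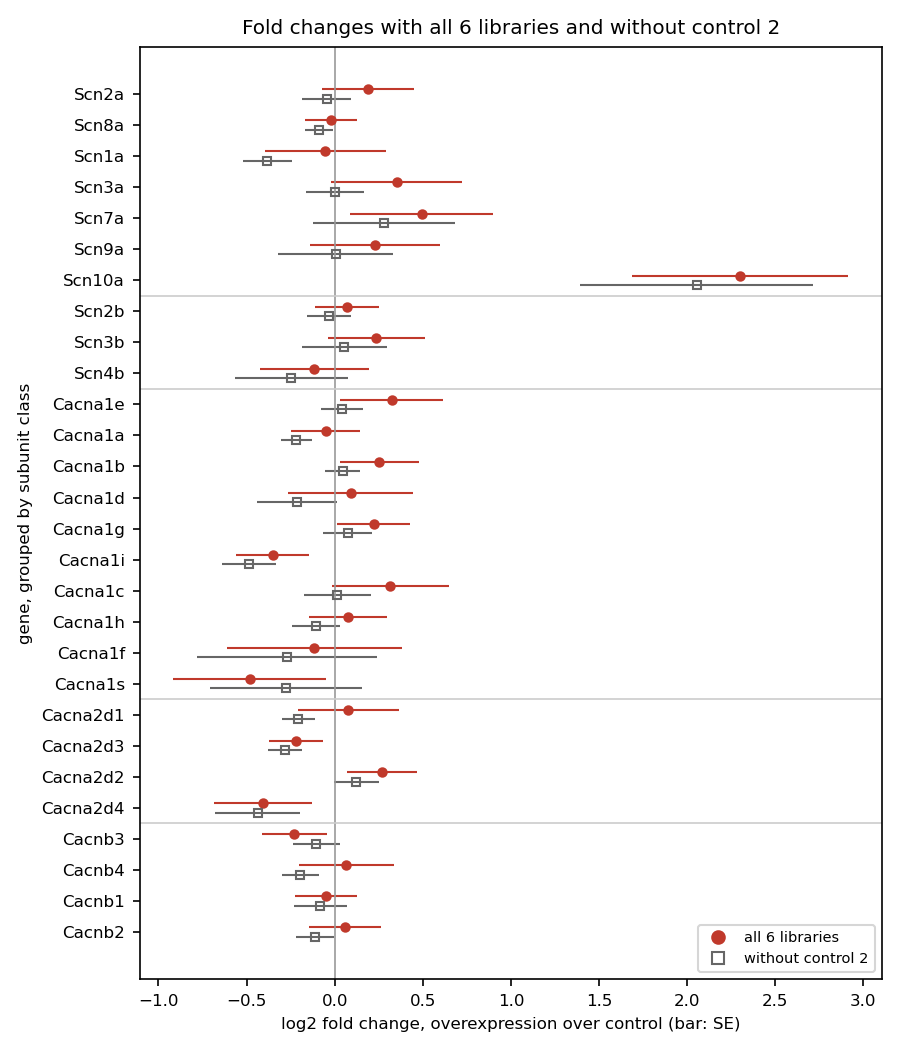
Log2 fold change of overexpression over control for 28 tested channel genes with all 6 libraries (red circles) and without control 2 (grey squares); bars are standard errors. In 26 of the 28 genes the grey square lies to the left of the red circle, and Scn10a is the only gene beyond 1 on either basis.

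Leaving out control 2 lowered most fold changes. The value was lower without control 2 in 27 of the 30 genes; the exceptions, Cacnb3 and Cacna1s among them, were the 3 genes in which control 2 was highest. It turned from above to below 0 in 7 genes, Scn2a, Scn2b, Cacna1d, Cacna1h, Cacna2d1, Cacnb2 and Cacnb4, and in none the other way. Against controls 1 and 3 alone, the overexpression libraries were lower without overlap in 8 genes, Scn1a, Scn8a, Cacna1a, Cacna1i, Cacna2d1, Cacna2d3, Cacna2d4 and Cacnb2, against 10.8% of all 22962 genes then tested. Among the genes with the longest transcripts these were 7 of 24 channel genes, against 13.0% of all genes. One gene, Scn10a, was higher without overlap, against 11.1% of all genes, and in either direction 21.9% of all genes did not overlap. At an unadjusted p under 0.05 there were then 5 channel genes, Scn10a (higher) and Scn1a, Cacna1a, Cacna1i and Cacna2d3 (lower), against 5.87% of all genes. After adjustment 0 of them passed, in edgeR (0% of all genes called, lowest adjusted p of a channel gene 0.744) or in DESeq2 (0.383% of all genes called, lowest 0.181). The overexpression libraries are the same in both comparisons and the controls are a subset, so the comparison without control 2 is not a second, independent one.

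Promoter sequence is shown for the genes among these 5 for which the reference table holds a start region clear of annotated untranslated sequence, namely Scn1a, Cacna1i and Cacna2d3. The 250 bases before each RefSeq start (GRCm38.p6) are printed 5′ to 3′ on the strand of the gene; capitals would mark a motif match, and there was none.
Scn1a (chr2:66440838-66441087, minus strand): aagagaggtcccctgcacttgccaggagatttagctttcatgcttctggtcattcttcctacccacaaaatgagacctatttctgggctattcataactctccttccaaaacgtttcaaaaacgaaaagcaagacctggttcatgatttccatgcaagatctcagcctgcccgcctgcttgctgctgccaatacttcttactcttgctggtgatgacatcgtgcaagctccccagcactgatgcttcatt
Cacna1i (chr15:80286988-80287237, plus strand): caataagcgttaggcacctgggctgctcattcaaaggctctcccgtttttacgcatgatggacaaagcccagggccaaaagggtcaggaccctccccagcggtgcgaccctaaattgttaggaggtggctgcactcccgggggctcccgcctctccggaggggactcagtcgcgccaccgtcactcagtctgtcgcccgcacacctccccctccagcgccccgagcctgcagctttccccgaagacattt
Cacna2d3 (chr14:29721865-29722114, minus strand): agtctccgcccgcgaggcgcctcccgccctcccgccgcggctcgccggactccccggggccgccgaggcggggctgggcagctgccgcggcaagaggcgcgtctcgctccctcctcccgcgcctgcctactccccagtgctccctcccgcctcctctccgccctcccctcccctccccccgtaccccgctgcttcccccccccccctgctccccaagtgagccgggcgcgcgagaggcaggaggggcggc
The 3 sequences differ in base composition, with 46.8% G and C in Scn1a, 62.4% in Cacna1i and 80.0% in Cacna2d3, against a median of 52.4% over all 32851 start regions. Both strands of the 250 bases were searched for the TCF/LEF core CTTTGAT, through which beta-catenin acts, for the cAMP response element TGACGTCA, for the AP-1 site TGANTCA and for TTCAGCACC, the left part of the element bound by the neuronal repressor REST. None of the 34 start regions held by 24 of the channel genes contained any of them. The share of all start regions with a match was 3.21% for TCF/LEF, 1.55% for the cAMP response element, 6.75% for AP-1 and 0.301% for the REST element.

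The share of each gene in the summed TPM of its class was compared between the groups. Among alpha subunits, Scn2a made up 42.4, 36.1 and 35.7% of the summed TPM in overexpression and 34.3, 33.7 and 37.7% in control. Scn8a made up 27.2, 29.9 and 33.8% in overexpression and 28.7, 43.3 and 29.5% in control, and Scn1a 20.2, 26.2 and 22.4% in overexpression and 28.9, 17.7 and 25.8% in control. Control 2 had the largest Scn8a share and the smallest Scn1a share of the 6 libraries. Among alpha-1 subunits, Cacna1a made up 17.0, 19.1 and 17.3% in overexpression and 21.7, 24.7 and 19.6% in control, and Cacna1i 6.75, 7.14 and 8.79% in overexpression and 11.0, 14.0 and 10.05% in control. In both genes the highest overexpression share lay below the lowest control share. Cacna1e took 26.8, 16.3 and 26.9% in overexpression and 14.6, 7.70 and 23.3% in control, with overlapping groups. Of 32 shares tested by a two-sided exact permutation test, 4 (Cacna1a, Cacna1i, Cacna2d4 and Scn10a) reached p = 0.1, the smallest that 3 against 3 libraries allow, and the lowest adjusted p was 0.8. Without control 2 the lowest unadjusted p of a share was 0.2 by the same exact test, in Cacna1a and Cacna1i (lower in overexpression) and in Cacna1b and Cacna2d2 (higher). The shares within a class sum to a fixed total, so the divergence of counts and TPM in Cacna1e enters the shares of the other Cacna1 genes too.

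**Figure D5:**
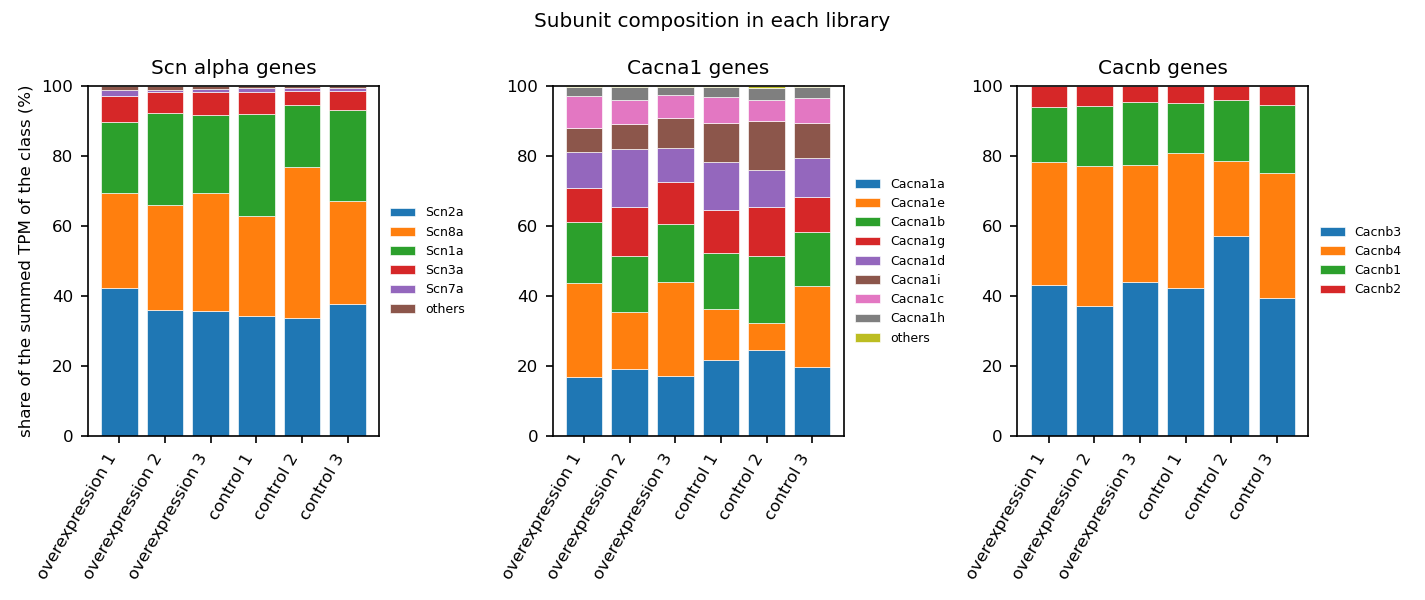
Share of each gene in the summed TPM of its class (stacked bars, % of the class) for sodium channel alpha, calcium channel alpha-1 and calcium channel beta subunits, in overexpression libraries 1 to 3 and then controls 1 to 3, with genes under a mean share of 1% drawn together as others. Control 2 shows a wider Scn8a segment (43.3%) and a wider Cacnb3 segment (57.2%) than the other 5 libraries, and the Cacna1e segment varies from 7.70% to 26.9%.

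No listed partner of these channels passed the test. Of 13 sodium channel partners tested (intracellular fibroblast growth factors, ankyrins, spectrin, adhesion molecules and regulators), 0 passed in either direction, 8 had a log2 fold change above 0 and 5 below, with a median of 0.00. Without control 2 the same list had 4 above 0 and 9 below, with a median of -0.08. The smallest p belonged to Nedd4l, a ubiquitin ligase that removes sodium channels from the membrane. It stood at 182, 169.8 and 158 CPM in overexpression and 139.7, 83.8 and 145 CPM in control, higher in every overexpression library, with a log2 fold change of 0.47 ± 0.23 (SE), an unadjusted p of 0.0738 by edgeR, and a log2 fold change of 0.25 without control 2. Scnm1, a splicing factor known in mice as a modifier of Scn8a, and Ank2, an ankyrin of axons, followed with log2 fold changes of -0.41 ± 0.28 and 0.18 ± 0.24 (SE) and overlapping groups; without control 2 these were -0.05 and -0.05. Of 23 genes tested from the calcium channel partner list (Cacng genes, active zone proteins, RGK GTPases and calmodulins), 0 passed, 6 were above 0 and 17 below, with a median of -0.20. Without control 2 there were 2 above and 21 below, with a median of -0.16. The Cacng genes were listed by family name, whether or not each acts on calcium channels. Of all tested genes, 50.7% were below 0, and 46.8% without control 2. One of the 23, Rimbp2, had an unadjusted p under 0.05 by edgeR with all libraries, against 4.65% of all tested genes. Rimbp2, which ties presynaptic calcium channels to the release site, stood at 219, 259 and 223 CPM in overexpression and 192, 122 and 171 CPM in control, a log2 fold change of 0.53 ± 0.20 (SE) with an unadjusted p of 0.0302 by edgeR, or 0.36 without control 2. Calm3, one of the calmodulin genes, stood at 827, 859.6 and 932 CPM in overexpression and 1032, 1312 and 1049 CPM in control, lower in every overexpression library, with a log2 fold change of -0.37 ± 0.16 (SE), or -0.25 without control 2. Rrad, an inhibitor of calcium channels, was at 0.660, 0.787 and 0.658 CPM in overexpression and 0.986, 1.45 and 0.949 CPM in control, with log2 fold changes of -0.68 ± 0.37 (SE) and, without control 2, -0.46. The sodium leak channel complex (Nalcn, Unc79, Unc80 and Fam155a) had 3 genes above 0 and 1 below and none that passed, and without control 2 it had 1 above and 3 below. Fam155a, the 1 gene below 0 with all libraries, stood at 73.0, 81.4 and 80.0 CPM in overexpression and 91.0, 126 and 87.2 CPM in control. Its log2 fold change was -0.38 ± 0.19 (SE), with an unadjusted p of 0.0797 by edgeR, or -0.19 without control 2. The log2 fold changes of Unc79 and Unc80, large scaffolds of that complex, were 0.43 ± 0.27 and 0.26 ± 0.30 (SE), or 0.18 and -0.04 without control 2, which was the lowest library for both.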

How the data were processed

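RNA was isolated with Trizol and made into strand-specific TruSeq libraries, per the labels' protocols. Tools named in the submitters' processing notes are STAR 2.5.3a, DESeq 1.16.1, FastQC 0.11.5 and Cuffnorm, with the build mm10; their roles, the counting program, the annotation and the strand setting are not stated there, so genes that overlap on opposite strands may share reads. The deposited tables hold unnormalised whole-number counts per gene and the authors' TPM, 1 column per library. Groups were taken from the sample titles.

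Genes kept by filterByExpr (minimum count 10) were scaled by TMM and tested in edgeR 4.0.16 (R 4.3.3) with group as the only term, at an adjusted p of 0.05; the SE is the log2 fold change over the root of F. The fits were tested on simulated data in which 200 of 22360 genes were changed 4-fold. The changed genes were drawn from those with a mean of 1 CPM or more. At the dispersion of these libraries, edgeR called 171 of the 200, with 14 calls among unchanged genes. DESeq2 called 185 of them, with 72 calls among unchanged genes. Alternatives were other scaling and filters, DESeq2 1.42.0, limma 3.58.1 (voom, and trend on log2 TPM with a pseudocount), a replicate block, each library left out, and a lowess length trend removed (span 0.3). DESeq2, limma-trend and trend removal without control 2 were added after seeing the data. The members and lists were chosen with earlier results of these data known. A pair of members is not reported here, although the counts over all members include them. The other members are named, with values in each library where its mean TPM is 1 or more or its unadjusted p is under 0.05, and up to 3 partners per list by smallest p; the library values of Cacna2d4, Slc17a7 and Tbr1 were added after they were seen. Coordinates are from GENCODE M21 and start regions from RefSeq (GRCm38.p6).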

Additional observations from a re-analysis of the deposited data

How the results depend on the processing

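The count of 0 channel genes held under all alternatives at an adjusted p of 0.05, including each library left out (0 to 0) and the replicate block, and in edgeR also at 0.1; their lowest adjusted p was 0.0671 (Scn10a, DESeq2), which a threshold of 0.1 would call. Over all genes, the count of 0 became 64 with DESeq2 and 132 with DESeq2 without control 2, and was 0 with each library left out in edgeR (0 to 0); the cause was not tested. The median log2 fold change of the channel genes, 0.07, was 0.35 on log2(TPM + 0.1), where the median of all genes was 0.23, and 0.30 on log2(TPM + 1), where it was 0.18. It ran from -0.09 (without control 2) to 0.18 (without control 1) as single libraries were left out, and was -0.07 with the length trend removed. There 5 channel genes (2 higher, 3 lower) had an unadjusted p under 0.05 by edgeR, against 6.63% of all genes. With that trend removed and without control 2, the median was -0.09. With the replicate block it was 0.12. Same-numbered libraries did not deviate together (correlations of 0.06, -0.02 and -0.01 for numbers 1, 2 and 3). With 3 libraries in each group, these correlations cannot tell whether the numbers pair libraries. Since no channel gene was called, a change of sign was counted and not read as a reversal. Signs differed in 7 of 30 genes without control 2, 7 without overexpression 1, 6 with the length trend removed and 0 with other scaling factors. The exact test of the shares on 3 against 3 libraries cannot reach 0.05, so it says nothing of their stability. Depth limits Scn4a, Scn11a and the other genes under 1 TPM.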

Other observations

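The 7 endothelial markers summed to 254, 315 and 226 CPM in overexpression and 202, 179.7 and 185 CPM in control, without overlap between the groups, although none of them passed the edgeR test after adjustment. Their log2 fold changes were above 0 in 5 and below 0 in 2, with and without control 2. Among single genes, 11.9% of all tested genes did not overlap between the groups. The 7 oligodendrocyte markers summed to 3077, 5142 and 6313 CPM in overexpression and 4522, 6771 and 5007 CPM in control, lowest in overexpression 1 and highest in control 2. The 7 astrocyte markers summed to 6186, 5664 and 6241 CPM in overexpression and 6439.8, 3771 and 7175 CPM in control, and the 7 microglial markers to 407, 251 and 318 CPM in overexpression and 299, 455 and 343 CPM in control, with overlapping groups in both. Their part in the channel gene values was not tested.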
